A study of Mus musculus with 19 samples.

Results

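Histone acetylation in the hippocampus is set by enzymes that add acetyl groups, the acetyltransferases, and enzymes that take them off, the deacetylases. The RNA levels of 10 such genes were followed across the libraries: the class I deacetylases Hdac1, Hdac2 and Hdac3, the class IIa deacetylases Hdac4, Hdac5, Hdac7 and Hdac9, the class IV deacetylase Hdac11, and the acetyltransferases Crebbp (CBP) and Ep300 (p300). They were chosen by name, as members of these enzyme families, and each matched 1 of the 51789 gene rows through its Ensembl identifier. All 10 had enough counts to be tested in every comparison.

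Dorsal hippocampus was taken from C57BL/6J males aged 2 to 4 months, and the libraries formed 2 experiments with 19 libraries in all. In experiment 1, 5 mice that carried both tTA and the DN transgene (tTA+/DN+) were compared with 6 control mice (tTA+/DN-), and all 11 had the exposure labelled SOR. In experiment 2, no mouse carried DN, and 4 mice with the SOR exposure were compared with 4 homecage mice. SOR replicate 1 and homecage replicates 1 and 2 were tTA-, and the other 5 mice of experiment 2 were tTA+. tTA is the tetracycline transactivator, which switches on transgenes placed behind a tet promoter, and DN is a dominant-negative form of Nr4a, a family of nuclear receptors that act as transcription factors. The promoter that drove tTA and the time between exposure and dissection were not given in the sources used here. No homecage DN mouse was analysed here, so a change of the SOR response by DN could not be measured. Mice are counted here as 1 per library, though nothing in the labels says that each library is a separate animal. The p-values therefore treat the libraries as independent samples.

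Removal of acetyl groups from histone tails generally goes with tighter chromatin and less transcription, and their addition with open chromatin. Class I enzymes are mainly nuclear and work inside corepressor complexes: HDAC1 and HDAC2 in the Sin3, NuRD and CoREST complexes, HDAC3 with NCoR and SMRT. Class IIa enzymes have weak deacetylase activity of their own, bind MEF2 transcription factors, and leave the nucleus when calcium-dependent kinases phosphorylate them. CBP and p300 are large coactivators that phosphorylated CREB brings to its target genes. In mice, loss of HDAC2 or HDAC3 in the hippocampus is known to strengthen long-term memory, and loss of CBP activity to weaken it. Much of this control acts on the proteins, through phosphorylation and movement between compartments, and RNA levels do not measure it.

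On GRCm38 (GENCODE M21), the genes lie apart from each other, mostly on different chromosomes. Hdac2 (ENSMUSG00000019777.16) spans chr10:36974544-37001889 on the plus strand with 22 distinct exons. Hdac4 (ENSMUSG00000026313.16) spans chr1:91928779-92195699 and Hdac5 (ENSMUSG00000008855.17) chr11:102194432-102230166, both on the minus strand. Hdac7 (ENSMUSG00000022475.18) spans chr15:97792664-97844502 on the minus strand, and the longest gene, Hdac9 (ENSMUSG00000004698.10), chr12:34047580-34917095 on the minus strand with 44 exons. Hdac11 (ENSMUSG00000034245.10) spans chr6:91156665-91174692 on the plus strand. Crebbp (ENSMUSG00000022521.10) spans chr16:4081328-4213997 on the minus strand with 43 exons, and Ep300 (ENSMUSG00000055024.12) chr15:81585351-81652077 on the plus strand with 47. The table gives 1 count per gene, so no exon or transcript form was measured on its own.

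Promoter letters were read because CREB and Nr4a proteins bind known DNA motifs. RefSeq promoter windows on GRCm38.p6, cut to the 250 bases before the annotated start, were found for 8 of the 10 genes, in 12 windows. The Nr4a monomer motif AAAGGTCA was in 0 of these 12 windows on either strand, against 1.34% of all 32851 windows of that length. The full CREB motif TGACGTCA was also in 0 of 12, against 1.55%. Its shorter core TGACG, which also lies within the full motif, was in 1 window of Hdac4 and 1 of Hdac11, against 17.8% of all windows. The GC box GGGCGG, a motif of Sp-family factors, was in 7 of the 12 windows, against 32.7%. That share was not matched for G and C content, which ran from 43.6% to 84.0% in the 12 windows. The sites with the CREB core are shown in 29-base stretches, 5′ to 3′ on the strand where the core reads forward along the gene, with TGACG in capitals. The Hdac4 pair lies at chr1:92180428-92180456 and chr1:92180376-92180404 on the minus strand, 103 and 51 bases before a RefSeq start inside a GENCODE intron of the gene. The Hdac11 stretch lies at chr6:91156694-91156722 on the plus strand, 109 bases before its RefSeq start and inside a GENCODE exon.
Hdac4 distal: ccgagccgtaatTGACGctttcttcatta
Hdac4 proximal: cacggggggaggTGACGcaaagccgttgt
Hdac11: tccggtcgtctgTGACGcagctgcaggcc
A match describes the letters only, and its absence from a window says nothing about binding.

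The libraries held 22258159 to 66991576 counts. SOR replicate 3 of experiment 2 had the smallest total and the fewest detected genes (27815), and stood apart in several of the genes below. Hippocampal neuron markers summed to between 1611 and 2239 CPM per library, the counts scaled to the library's total after its adjustment by TMM. The sums ranged from 627 to 842 CPM for interneurons, 5663 to 8005 for oligodendrocytes, 363 to 432 for microglia, 4112 to 5111 for astrocytes and 36.9 to 110 for blood. Choroid plexus markers varied most, from 20.1 to 4105 CPM, with a marker at 0 in 1 library. The Nr4a genes themselves had fitted log2 fold changes of -0.26 for Nr4a2, -0.20 for Nr4a3 and -0.11 for Nr4a1 in DN against control mice, with adjusted p = 0.999 for each (edgeR). The labels do not say which family member DN derives from, or whether its reads count toward a named gene, so these values do not check the label.

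Levels between genes were compared in homecage mice as CPM per kilobase of annotated exon. The Hdac11 level was highest, at 28.3 ± 2.26 CPM per kb (SD, n = 4). Hdac2, the deacetylase most tied to memory in mice, followed at 22.2 ± 1.90 CPM per kb. Hdac3 was at 17.8 ± 1.32 CPM per kb and Hdac5 at 14.8 ± 0.648. No 2 neighbours among these 4 genes overlapped in their homecage ranges. A middle set followed, with Crebbp at 6.88 ± 0.743, Hdac1 at 6.40 ± 0.361, Hdac9 at 4.52 ± 0.166, Hdac4 at 4.31 ± 0.489 and Ep300 at 4.02 ± 0.373 CPM per kb. Of neighbours in that set, Crebbp and Hdac1, Hdac9 and Hdac4, and Hdac4 and Ep300 overlapped. Hdac7, which outside the brain is known for its role in endothelium and lymphocytes, was lowest at 1.38 ± 0.113 CPM per kb.

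**Figure D1:**
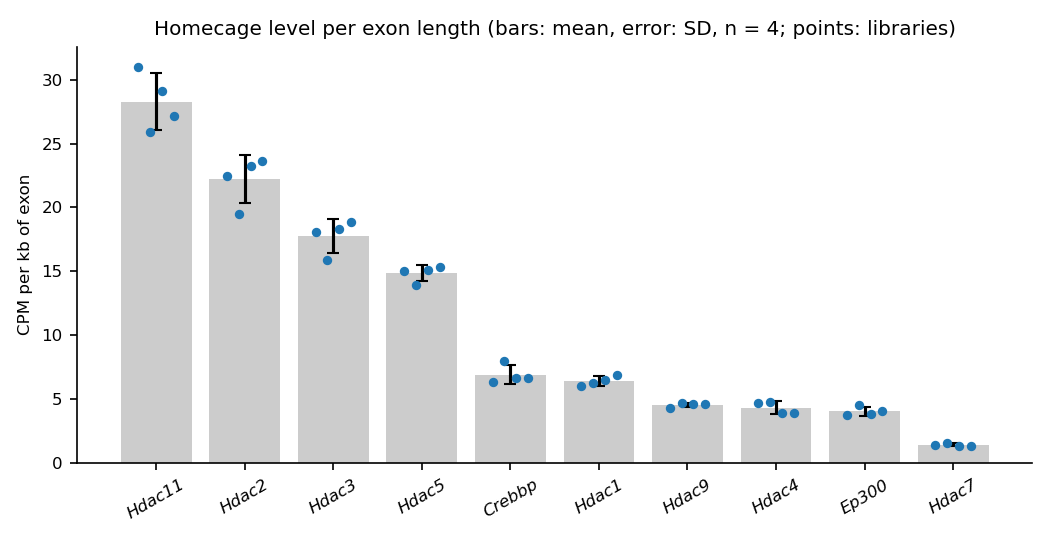
Homecage level of the 10 genes in CPM per kilobase of exon, with bars for the mean, error bars for the SD and points for the 4 libraries. Hdac11, Hdac2, Hdac3 and Hdac5 lie between 14.8 and 28.3 CPM per kb on average, and Hdac7 lies lowest at 1.38.

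The order was stable at its ends across all groups. Hdac7 was lowest in 19 of 19 libraries, and Hdac11, Hdac2 and Hdac3 were the top 3 in 17 of 19. The exact homecage order held in 3 of 19 libraries, because the genes of the middle set changed places. These values rest on union exon length, so a gene with long annotated exons that hippocampal transcripts skip would read low.

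**Figure D2:**
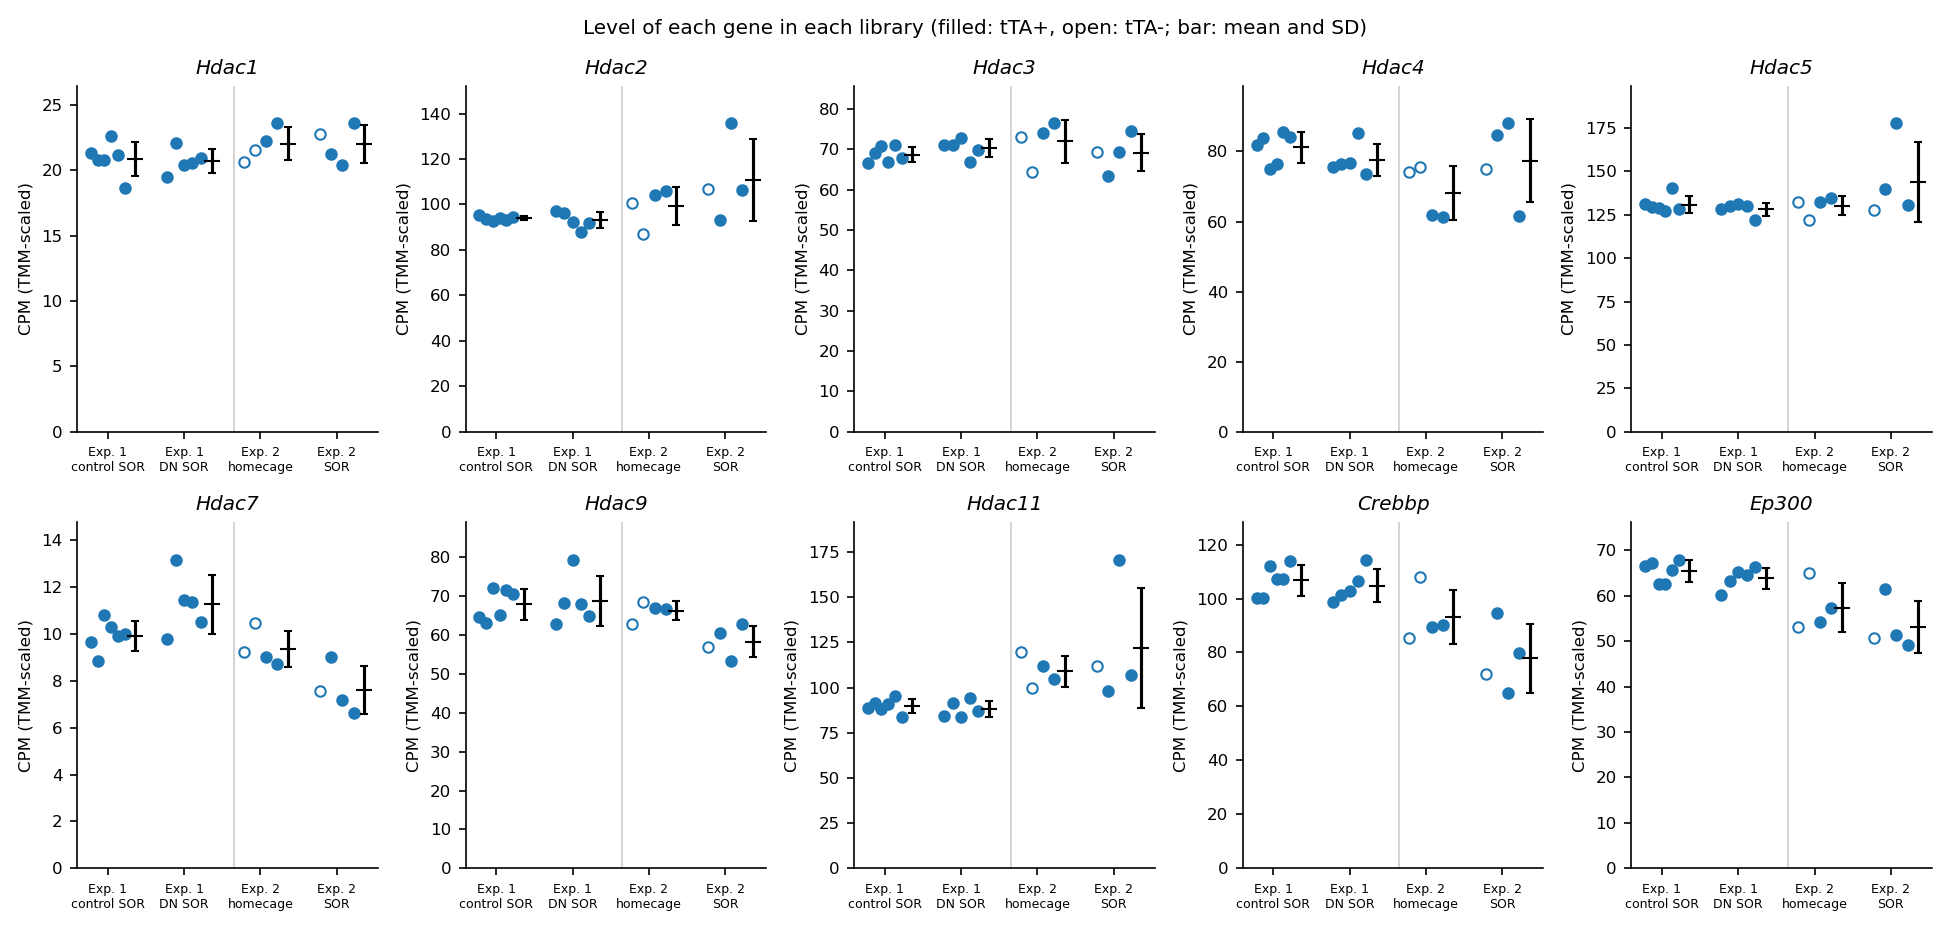
Level of each gene in each library, in CPM scaled within each experiment, with the group mean and SD, filled points for tTA+ and open points for tTA- mice. The groups overlap for every gene except Hdac9 in experiment 2, and SOR replicate 3 stands high for Hdac2 (136), Hdac5 (178) and Hdac11 (171).

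The first comparison asked whether carrying DN went with other levels of these genes, all mice having had SOR. None of the 10 was called in DN against control mice at an adjusted p under 0.05 (edgeR quasi-likelihood test), where 0.00893% of the 22391 genes tested were called. Hdac7 alone had an unadjusted p under 0.05, against 3.83% of all genes in either direction and 2.02% higher. The groups did not overlap for 0 of the 10, against 0.299% of all genes. DESeq2 and limma-voom also called 0 of the 10. The median fitted difference was -0.02 on the log2 scale, with 3 genes above 0 and 7 below, where 57.9% of all genes at 5 CPM or more were below. The median size of the difference, sign aside, was 0.0280 for the 10 genes and 0.0357 for all genes at 5 CPM or more. In this bulk tissue, fewer cells of a type and less RNA per cell cannot be told apart.

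The class I genes were nearly level. Hdac2 measured 97.0, 96.3, 92.1, 88.1 and 92.1 CPM in DN mice, and 92.7 at the lowest, 93.9 in the median and 95.4 at the highest in controls. The DN values spread on both sides of the narrow control range, with a log2 fold change of -0.01 (SE 0.0326, adjusted p = 0.999, edgeR). Hdac3, the catalytic subunit of the NCoR and SMRT complexes, measured 71.0, 71.1, 72.9, 66.98 and 69.9 CPM in DN mice and 66.6, 68.4 and 71.0 CPM as lowest, median and highest in controls. Its groups overlapped, with a log2 fold change of 0.03 (SE 0.0347). Hdac1, the partner of HDAC2 in most of its complexes, was at 20.7 ± 0.953 CPM in DN (SD, n = 5) and 20.9 ± 1.29 CPM in control mice (SD, n = 6).

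Among class IIa genes, Hdac7 had the difference furthest from 0. It measured 9.79, 13.2, 11.5, 11.4 and 10.5 CPM in DN mice, and 8.85, 9.96 and 10.8 CPM as lowest, median and highest in controls. DN replicates 2, 3 and 4 were above all controls and the other DN libraries lay within the control range. The log2 fold change was 0.18 (SE 0.0785), a fold of 1.01 to 1.27 at 95% confidence, with unadjusted p = 0.0314 and adjusted p = 0.999 (edgeR). Without DN replicate 2 it was 0.12 with unadjusted p = 0.135 (adjusted p = 0.995), and the unadjusted p stayed under 0.05 in 7 of the 11 fits that left out 1 library. The 8 endothelial markers summed to between 155 and 182 CPM in DN mice and between 144 and 173 CPM in controls. Of these markers, 1 of 8 passed an unadjusted 0.05: Egfl7, with a log2 fold change of 0.12 (adjusted p = 0.999, edgeR). Their part in the Hdac7 value was not tested. Hdac7 shares 29 bases of exon with Slc48a1 on the opposite strand, which had 1781 to 7074 counts per library against 152 to 616 for Hdac7, and the use of strand in counting was not given in the sources used here.

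The other class IIa genes lay closer to 0. Hdac4 measured 75.4, 76.3, 76.6, 85.4 and 73.6 CPM in DN mice and 75.0, 82.8 and 85.5 CPM as lowest, median and highest in controls. DN replicate 4 was close to the highest control, DN replicate 5 was below all controls, and the other DN libraries were in the lower part of the control range. The log2 fold change was -0.06 (SE 0.0437, adjusted p = 0.999, edgeR), with a 95% interval from -0.16 to 0.03. Hdac5 was at 128 ± 3.70 CPM in DN (SD, n = 5) and 131 ± 4.86 CPM in control mice (SD, n = 6). Hdac9, whose short form lacks the catalytic domain, was at 68.7 ± 6.43 CPM in DN and 67.9 ± 3.98 CPM in control mice. Counts per gene do not separate its forms.

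Hdac11 and the acetyltransferases did not separate the groups either. Hdac11 was at 88.1 ± 4.60 CPM in DN mice (SD, n = 5) and 89.7 ± 3.79 CPM in control mice (SD, n = 6). Crebbp measured 98.8, 101, 103, 107 and 114 CPM in DN mice and 100.03, 107 and 114 CPM as lowest, median and highest in controls. Those ranges nearly coincide, with a log2 fold change of -0.03 (SE 0.0423). Ep300 measured 60.2, 63.2, 65.1, 64.5 and 66.3 CPM in DN mice and 62.6, 66.1 and 67.9 CPM in controls, with a log2 fold change of -0.04 (SE 0.0371). Over all 10 genes, the 95% intervals lay between folds of 0.898 and 1.27, and 9 of the 10 spanned no change.

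**Figure D3:**
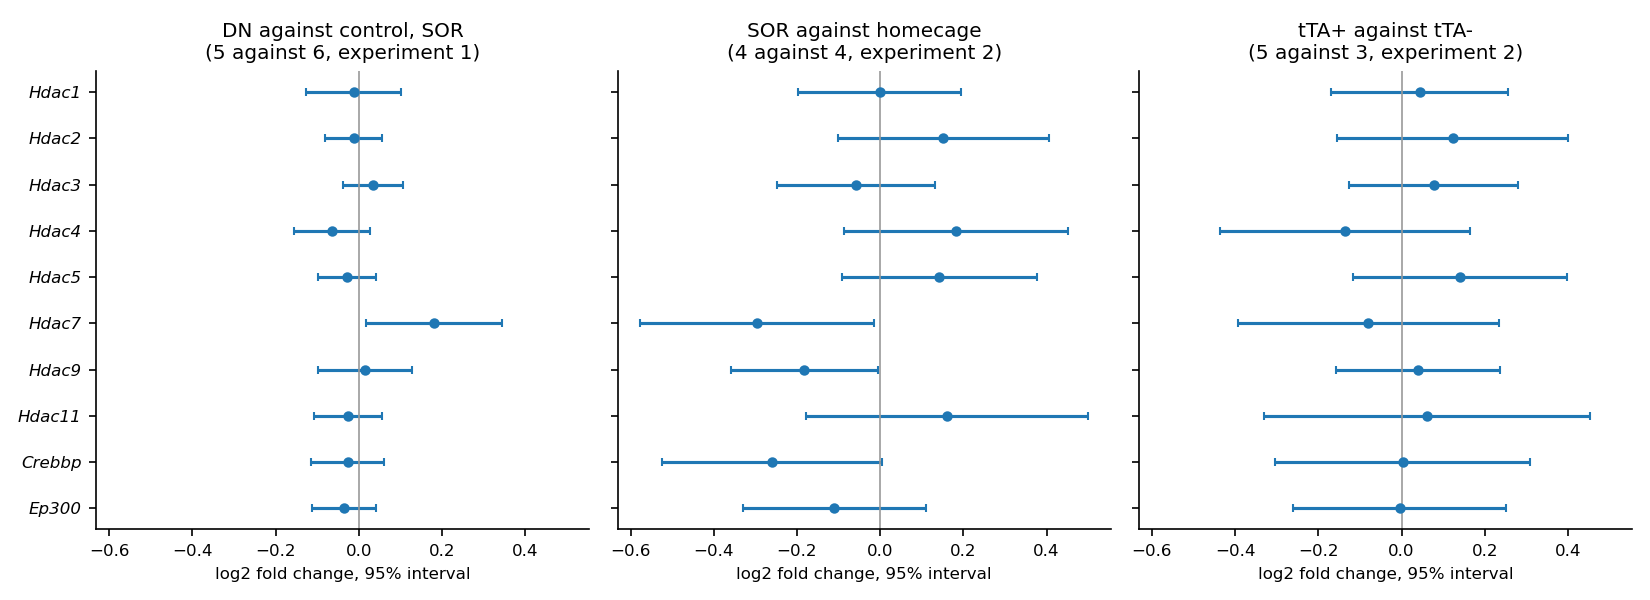
Fitted log2 fold change of each gene with its 95% interval (edgeR) in the DN, SOR and tTA comparisons, with a vertical line at no change. The intervals of Hdac7 in the DN comparison (0.02 to 0.34) and of Hdac7 and Hdac9 in the SOR comparison miss the line, and no gene passed an adjusted p under 0.05.

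The comparison of SOR with homecage mice asked whether the exposure changed these genes without DN. Again 0 of the 10 were called (edgeR), where 0.0897% of the 22305 genes tested were called, and DESeq2 and limma-voom also called 0. Hdac7 and Hdac9 were the 2 genes with an unadjusted p under 0.05, both lower after SOR, against 7.6% of all genes in either direction and 3.93% lower. Fitted values were above 0 for 4 genes and below for 6, with a median of -0.03, where 37.4% of all genes at 5 CPM or more were below. The median size of the difference was 0.157, against 0.105 for all genes at 5 CPM or more.

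Hdac9 was the single gene of the 10 whose groups did not overlap, against 5.71% of all genes tested in either direction and 2.65% lower. It measured 62.8, 68.5, 66.9 and 66.8 CPM in homecage mice and 56.8, 60.5, 53.4 and 62.7 CPM after SOR. The gap between SOR replicate 4 and homecage replicate 1 is smaller than the spread within either group. The log2 fold change was -0.18 (SE 0.0805), with unadjusted p = 0.0435 and adjusted p = 0.650 (edgeR). Without SOR replicate 3 it was -0.14 with unadjusted p = 0.0570, and the unadjusted p was under 0.05 in 3 of the 8 fits that left out 1 library.

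Hdac7 measured 9.22, 10.4, 9.02 and 8.70 CPM in homecage mice and 7.57, 9.03, 7.19 and 6.61 CPM after SOR. SOR replicate 2 lay within the homecage range and the other SOR libraries below it. The log2 fold change was -0.30 (SE 0.128), with unadjusted p = 0.0407 and adjusted p = 0.646 (edgeR), opposite in sign to the value in DN mice. It was -0.27 both without SOR replicate 3 (unadjusted p = 0.0514) and with tTA in the model (unadjusted p = 0.0697), and the unadjusted p was under 0.05 in 2 of the 8 fits that left out 1 library. Of the 8 endothelial markers, 2 had an unadjusted p under 0.05 and were lower with no overlap: Kdr, a VEGF receptor, at -0.55 (adjusted p = 0.157) and Tek, an angiopoietin receptor, at -0.23 (adjusted p = 0.621). Of all genes, 3.93% were lower at such a p and 2.65% were lower with no overlap. The endothelial sum was 163 to 184 CPM in homecage and 145 to 188 CPM in SOR mice, so the list as a whole overlapped. Over the 8 markers, 3 fitted values were above 0 and 5 below, with a median of -0.05. The part of these markers in the Hdac7 value was not tested.

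Crebbp measured 85.5, 108, 89.3 and 90.0 CPM in homecage mice and 71.9, 94.6, 65.0 and 79.8 CPM after SOR. In 3 of the 4 SOR libraries it was below all homecage libraries, and SOR replicate 2 lay within their range. The log2 fold change was -0.26 (SE 0.121), with a 95% interval from -0.53 to 0.0050, unadjusted p = 0.0541 and adjusted p = 0.657 (edgeR). Leaving out 1 library moved it between -0.37 without SOR replicate 2 (unadjusted p = 0.00687, adjusted p = 0.345) and -0.18 without SOR replicate 3 or homecage replicate 2. Ep300, the close paralog of CBP, measured 53.1, 64.9, 54.1 and 57.4 CPM in homecage mice and 50.6, 61.5, 51.4 and 49.1 CPM after SOR. Its groups overlapped, with a log2 fold change of -0.11 (SE 0.1002, adjusted p = 0.738, edgeR). That value was -0.19 without SOR replicate 2 and -0.05 without homecage replicate 2.

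Hdac2, Hdac5 and Hdac11 were higher on average after SOR, and in each the average rested on SOR replicate 3. Hdac2 measured 101, 87.1, 104 and 106 CPM in homecage mice and 107, 93.0, 136 and 106 CPM after SOR. Its log2 fold change was 0.15 (SE 0.116, adjusted p = 0.706, edgeR) with all libraries and 0.04 without SOR replicate 3. Hdac5, a class IIa enzyme that neuronal activity moves out of the nucleus, measured 132, 122, 133 and 135 CPM in homecage mice and 128, 139.9, 178 and 130.4 CPM after SOR. It went from 0.14 (SE 0.107, adjusted p = 0.704) to 0.03 without that library. Hdac11 measured 119, 99.6, 112 and 104 CPM in homecage mice and 112, 97.9, 171 and 107 CPM after SOR, and its log2 fold change turned from 0.16 (SE 0.155, adjusted p = 0.749) to -0.04.

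The remaining genes showed little or varied within groups. Hdac1 was at 22.04 ± 1.24 CPM in homecage and 22.02 ± 1.42 CPM in SOR mice (SD, n = 4 each). Hdac3 was at 72.1 ± 5.35 CPM in homecage and 69.2 ± 4.55 CPM in SOR mice. Hdac4 measured 74.2, 75.5, 61.8 and 61.2 CPM in homecage mice and 75.0, 84.8, 88.1 and 61.6 CPM after SOR, so the lowest level in each group was close to 61 CPM. Its log2 fold change was 0.18 (SE 0.123, adjusted p = 0.688, edgeR) with all libraries. It was 0.12 without SOR replicate 3, 0.28 without SOR replicate 4 (unadjusted p = 0.0290, adjusted p = 0.631) and 0.34 in tTA+ mice alone (adjusted p = 0.998). Choroid plexus markers summed to between 45.7 and 172 CPM in homecage mice and between 24.0 and 2191 CPM in SOR mice. All 8 markers had fitted log2 fold changes above 0, with a median of 2.16 (edgeR). Of the 8, 5 had an unadjusted p under 0.05, against 7.6% of all genes in either direction, and 0 were called. The part of these markers in the values of the 10 genes was not tested. The 95% intervals over the 10 genes lay between folds of 0.670 and 1.41, wider than in the DN comparison, and 8 of the 10 spanned no change.

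**Figure D4:**
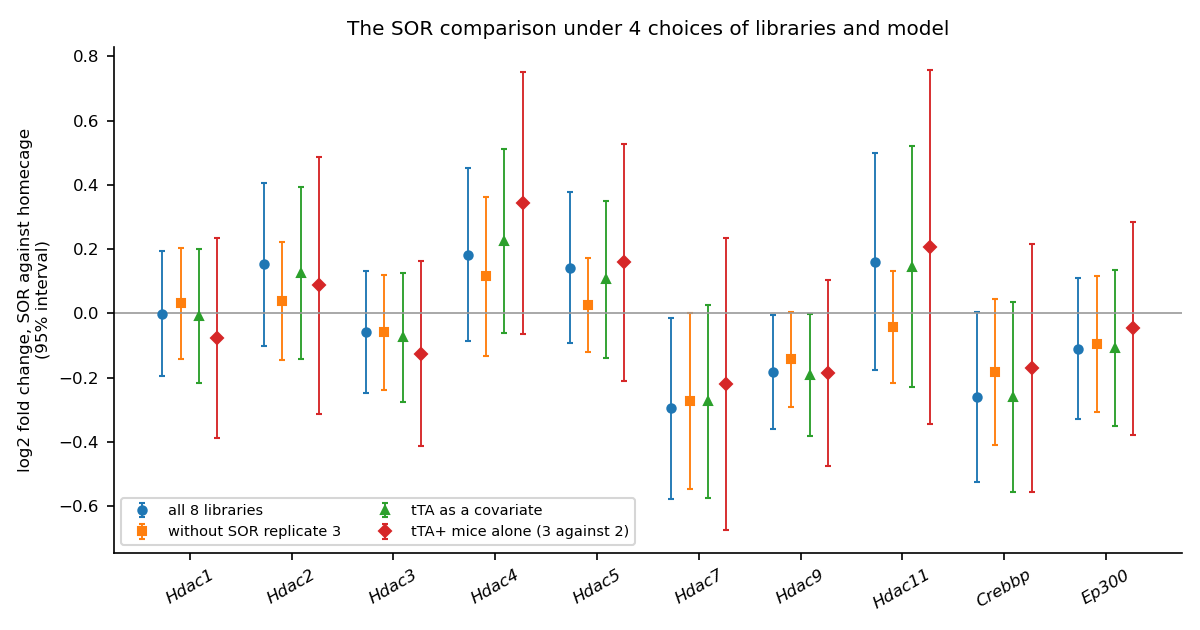
Fitted log2 fold change of SOR against homecage with its 95% interval for each gene, with all 8 libraries, without SOR replicate 3, with tTA in the model, and in tTA+ mice alone (3 against 2). Hdac3, Hdac7, Hdac9, Crebbp and Ep300 stay below 0 in all 4, while Hdac11 turns from 0.16 to -0.04 without SOR replicate 3.

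The tTA comparison set the 5 tTA+ mice of experiment 2 against the 3 tTA- mice with exposure in the model, and uses the same 8 libraries as the SOR comparison. None of the 10 was called (edgeR), where 0.358% of the 22904 genes tested were called, and 0 had an unadjusted p under 0.05, against 5.71% of all genes. DESeq2 and limma-voom also called 0. The groups did not overlap for 0 of the 10, against 5.81% of all genes. Fitted values were above 0 for 7 genes and below for 3, and all 10 intervals spanned no change, between folds of 0.739 and 1.37. Hdac5 had the smallest unadjusted p of the 10, at 143 ± 19.7 CPM with tTA (SD, n = 5) against 127 ± 5.09 CPM without it (SD, n = 3), and a log2 fold change of 0.14 (SE 0.116, adjusted p = 0.9999, edgeR). That value was 0.08 both without SOR replicate 3 and without SOR replicate 1. Hdac4 lay between 74.2 and 75.5 CPM in the tTA- mice, and at 61.8, 61.2, 84.8, 88.1 and 61.6 CPM in the tTA+ mice. The tTA+ levels fell on both sides of the tTA- levels and none among them, with a log2 fold change of -0.14 (SE 0.136), which was -0.28 without SOR replicate 1. The summed dentate granule cell markers ranged from 519 to 611 CPM in tTA- and from 298 to 382 CPM in tTA+ mice. The 8 markers did not move alike: 4 were called lower, 1 (Tdo2, at 0.88) was called higher, and fitted log2 fold changes ran from -2.19 to 0.88 (edgeR). Their part in the values of the 10 genes was not tested. Crebbp, in the same libraries, had a log2 fold change of 0.0030 (SE 0.138) and Ep300 of -0.0047 (SE 0.115).

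The other genes of the acetylation machinery were read from 6 lists with 102 genes tested. In DN against control mice, 0 of the 102 were called (edgeR) and 0 had an unadjusted p under 0.05, against 3.83% of all genes. Of the 102, 76 were below 0, which is 74.5%, where 57.9% of all genes at 5 CPM or more were. The median log2 fold change was -0.02 for the 102 genes and -0.0097 for all genes at 5 CPM or more. Medians of the lists were -0.01 for the 10 other deacetylases, which hold the remaining Hdac genes and the sirtuins, and -0.03 for the 12 other acetyltransferases. They were -0.01 for the 27 corepressor subunits, -0.02 for the 20 class IIa partners such as the MEF2 factors and their kinases, -0.06 for the 17 partners of CBP and p300, and -0.01 for the 16 readers of acetylated lysine.

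After SOR, 0 of the 102 were called (edgeR), and 7 had an unadjusted p under 0.05, which is 6.86% against 7.6% of all genes. Those were 2 higher and 2 lower corepressor subunits, 2 higher partners of CBP and p300, and 1 lower reader, with 0 among the other deacetylases, the other acetyltransferases and the class IIa partners. Rcor3, a CoREST family subunit that works with HDAC1 and HDAC2, had a level of 24.0 ± 1.87 CPM in homecage mice and of 19.3 ± 1.77 CPM after SOR (SD, n = 4 each), with a log2 fold change of -0.31 (SE 0.1003, adjusted p = 0.604, edgeR). Mta2, a NuRD subunit, had a level of 52.9 ± 1.71 CPM in homecage mice and of 61.0 ± 6.14 CPM after SOR, with a log2 fold change of 0.20 (SE 0.0877, adjusted p = 0.643, edgeR). Stat3, a transcription factor that recruits CBP and p300, had a level of 55.5 ± 2.02 CPM in homecage mice and of 63.0 ± 2.44 CPM after SOR, with a log2 fold change of 0.18 (SE 0.0746, adjusted p = 0.628, edgeR). These genes were named because they had an unadjusted p under 0.05 and groups that did not overlap. The groups did not overlap for 7 of the 102, against 5.71% of all genes.

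In tTA+ against tTA- mice, 0 of the 102 were called (edgeR), and 5 had an unadjusted p under 0.05, which is 4.9% against 5.71% of all genes. Those were 2 higher and 2 lower class IIa partners and 1 lower partner of CBP and p300. Prkd1, a protein kinase D that phosphorylates class IIa deacetylases, averaged 17.6 ± 2.04 CPM with tTA (SD, n = 5) and 24.9 ± 2.19 CPM without it (SD, n = 3), with a log2 fold change of -0.53 (SE 0.118, adjusted p = 0.143, edgeR). Elk1, a transcription factor that binds CBP, averaged 54.7 ± 8.67 CPM with tTA and 68.0 ± 4.95 CPM without it, with a log2 fold change of -0.32 (SE 0.139, adjusted p = 0.858, edgeR).

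Likeness of pattern was read as Spearman's rho of log2 CPM over the 19 libraries, centred within each experiment, as a description. Among the 10 genes, Crebbp and Ep300 had a rho of 0.702, which was 0.164 within experiment 1 and 0.905 within experiment 2. Hdac7 and Hdac9 had 0.605, with 0.636 and 0.619 within the experiments. Hdac2 and Crebbp ran opposite, at -0.718 over the 19 libraries and -0.616 without SOR replicate 3. Their rho was -0.536 within experiment 1 and -0.905 within experiment 2. Hdac4 and Hdac5 went from 0.533 to 0.110 without that library. Among 16851 genes, the pattern most like each member was that of Gm16364 for Hdac7 (0.979), Arfgef3 for Crebbp (0.930), Mdh2 for Hdac11 (0.921), Psmd9 for Hdac2 (0.912), Caskin2 for Hdac4 (0.882), Snx4 for Hdac3 (0.872), Pip5k1c for Hdac5 (0.863), Borcs7 for Hdac9 (0.860), Helz for Ep300 (0.840) and Nipsnap2 for Hdac1 (0.837). The points share dissection, library and depth, and each gene was the closest of all compared.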

How the data were processed

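The deposited table holds whole-number counts per gene, made by the authors with STAR, SAMtools 1.6 and featureCounts 1.4.4 on mm10, per the submitters' processing notes. Per the labels' protocols, Trizol was used for extraction and Ribo-zero gold for depletion of ribosomal RNA. The annotation and the handling of strand and multiply mapped reads were not given in the sources used here. Symbols and exon lengths came from GENCODE M21 (GRCm38), which held 51596 of 51789 identifiers. The genes, lists and tests were chosen with earlier results of these data known.

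Each experiment was fitted alone in edgeR 4.0.16 (R 4.3.3): TMM scaling, filterByExpr, quasi-likelihood F test, two-sided, Benjamini-Hochberg over all genes tested, called at an adjusted p under 0.05. The standard error is the log2 fold change divided by the root of F. Levels are CPM with TMM scaling. DESeq2 1.42.0, limma 3.58.1 (voom), other scalings, filters and models, and leaving out each library were tried. All 10 genes were named. Of each acetylation list, genes called and up to 3 with an unadjusted p under 0.05 and no overlap of groups were named. The closest pattern was sought among genes at 1 CPM or more.

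Libraries within each group varied beyond counting noise (chi-square per degree of freedom 4.63 to 73.4), so no library was treated as the same library deposited again. This does not show that they came from separate animals. Hdac7 had the fewest counts of the 10, 152 to 616 per library.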

Additional observations from a re-analysis of the deposited data

Results flagged for a closer look

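Of 40 groups checked, 2 had a library far from the rest, and chance gives about 2. Hdac4 in DN replicate 4 was at 85.4 CPM, while the other DN libraries lay between 73.6 and 76.6 CPM. Without that library, the log2 fold change of Hdac4 in DN against control mice went from -0.06 to -0.10 (edgeR, unadjusted p = 0.0210, not called after adjustment). Hdac5 in control replicate 5 of experiment 1 was at 140.4 CPM, while the other controls lay between 127 and 131 CPM. With this control left out, the Hdac5 log2 fold change in the same comparison went from -0.03 to -0.0068 (edgeR, unadjusted p = 0.830).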

How the results depend on the processing

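None of the 10 genes was called under any alternative run in the 3 comparisons, and the smallest adjusted p was 0.870 for DN, 0.174 for SOR (Crebbp, all 19 libraries in 1 fit) and 0.655 for tTA. Over all settings but those leaving out a library, the direction held in 60 of 60 values for DN, 78 of 80 for SOR and 62 of 70 for tTA. Hdac1 in the SOR comparison turned to 0.0022 with limma-voom and 0.0069 with all 19 libraries. In the tTA comparison, Hdac9 turned to -0.0131 and Crebbp to -0.0777 without exposure in the model, and Crebbp to -0.00081 with all 19 libraries. With the replicate number as a block, the tTA values turned to -0.0239 for Hdac1, -0.0644 for Hdac2, 0.127 for Hdac7, -0.207 for Hdac11 and 0.0469 for Ep300. Only replicate number 2 held both a tTA+ and a tTA- mouse, so in that fit the tTA values rested on this pair.

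Leaving out each library in turn kept the direction in 105 of 110 values for DN, 75 of 80 for SOR and 70 of 80 for tTA. Values that turned ranged from -0.0420 to 0.0110 for Hdac1, -0.0292 to 0.0064 for Hdac2 and -0.0418 to 0.0437 for Hdac9 (DN). They ranged from -0.0366 to 0.0340 for Hdac1 and -0.0435 to 0.252 for Hdac11 (SOR), and from -0.0611 to 0.144 for Hdac11, -0.108 to 0.118 for Crebbp and -0.0807 to 0.0887 for Ep300 (tTA). Hdac7 kept its sign, from 0.12 to 0.23 for DN (unadjusted p from 0.00988 to 0.135, and 0.0526 both with the replicate block and with all 19 libraries) and from -0.39 to -0.23 for SOR. The cause of these changes was not tested.

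Correlations of same-numbered libraries ran from -0.05 to 0.19 in experiment 1 and from 0.05 to 0.39 for SOR against homecage. They were over 0.1 in 2 of 5 and 2 of 4 pairs. The main fits did not pair libraries by number, and these correlations cannot decide whether the numbers pair samples. Among 10 libraries of the first comparison 2 correlated best with their own number, and 3 of 8 of the second. With the replicate block, 0 of the 10 genes were called in the DN and SOR comparisons. In the tTA comparison that block leaves replicate number 2 alone to carry the tTA contrast, so no count was read from it. Over all genes, the SOR count of 20 became 36 with no filter, 122 with DESeq2, 145 with all 19 libraries, 9 with the block, 11 with tTA in the model, 0 in tTA+ mice alone and 1 to 50 without 1 library. The tTA count of 82 became 265, 253 and 384 under the first 3 of these settings, and 10 to 290 without 1 library. The DN count was 2 in every setting. SOR replicate 3 had the smallest depth.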
